A study of Saccharomyces cerevisiae with 4 samples.

Results

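The genes of the translation initiation machinery of the budding yeast Saccharomyces cerevisiae were examined for chromatin peaks of Arp4, a nuclear actin-related protein that belongs to the NuA4 histone acetyltransferase and to the SWR1 and INO80 chromatin remodelling complexes. The set was a named list of 31 genes, all of which were found in the R64 gene table among 6002 protein-coding genes. It holds the initiation factors eIF1 to eIF5 and eIF5B with their subunits, the exchange factor eIF2B, the messenger RNA binding factors around eIF4, and the recycling factor RLI1. The peaks came from chromatin immunoprecipitation with sequencing of wild-type cells that carried ARP4 fused to a Flag tag (Arp4-3Flag, 2 samples) or no tag (2 samples). All cells were grown at 30 °C in rich YPD medium to mid-log phase, and the same Flag antibody was used on both groups.

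The data are 1 list of 1430 peaks for the whole series, with no value per sample. No value below therefore has a replicate error or a test, the read depth is unknown, and untagged signal over these genes was not analysed here. The fold of a peak is the authors' linear enrichment at its summit, the point of highest signal, and its −log10 q is the authors' peak-calling significance. Both describe and rank peaks within this list only. The list has a median fold of 1.66, a range of 1.02 to 6.32 and a median −log10 q of 15.9. No genome build is named with the peaks, so peak positions are given as deposited, counted from 1, and were matched to R64 gene starts.

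Initiation in yeast begins when eIF2, carrying GTP and the initiator tRNA, joins the small ribosomal subunit together with eIF1, eIF1A, eIF3 and eIF5. The eIF4 factors bind the cap and unwind the messenger RNA, the complex scans to a start codon, and eIF5B then brings in the large subunit. The exchange factor eIF2B recharges eIF2 with GTP and is the point at which amino acid starvation slows initiation. In growing cells most of these factors are abundant proteins, made along with ribosomes.

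Arp4 peaks were found at 19 of the 31 initiation factor genes, at the start of some, along the body of others, and at both in 5. A promoter summit, meaning one no more than 500 bp before or 100 bp after the annotated start, was present in 10 of 31 genes (32.3%), against 14.0% of all protein-coding genes. A body summit, inside the gene and more than 100 bp from both ends, was present in 14 of 31 (45.2%), against 10.1% of all protein-coding genes. Many of the body peaks were weak. Counting only peaks at or above the list's median fold left 5 of 31 genes with a body summit (16.1%, against 3.43% of all genes), and counting only those with a −log10 q of at least 10 left 7 (22.6%, against 6.03%). With a promoter window from 250 bp upstream to the start, 2 of 31 genes had a promoter summit (6.45%, against 2.23%). Either kind was present in 61.3% of the initiation factor genes and in 21.9% of all genes, and both kinds together in 16.1% and 2.20%. The 10 promoter peaks had a median fold of 2.14, and the 659 promoter peaks of all genes had 1.86. The 24 body peaks had a median of 1.50, close to the 1.53 of the 671 body peaks of all genes. The share of genes with a body peak was thus above that of all genes, while the folds of those peaks were close to the median of all body peaks. The 31 genes were chosen with earlier results of these data known, so their shares are descriptions.

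**Figure D1:**
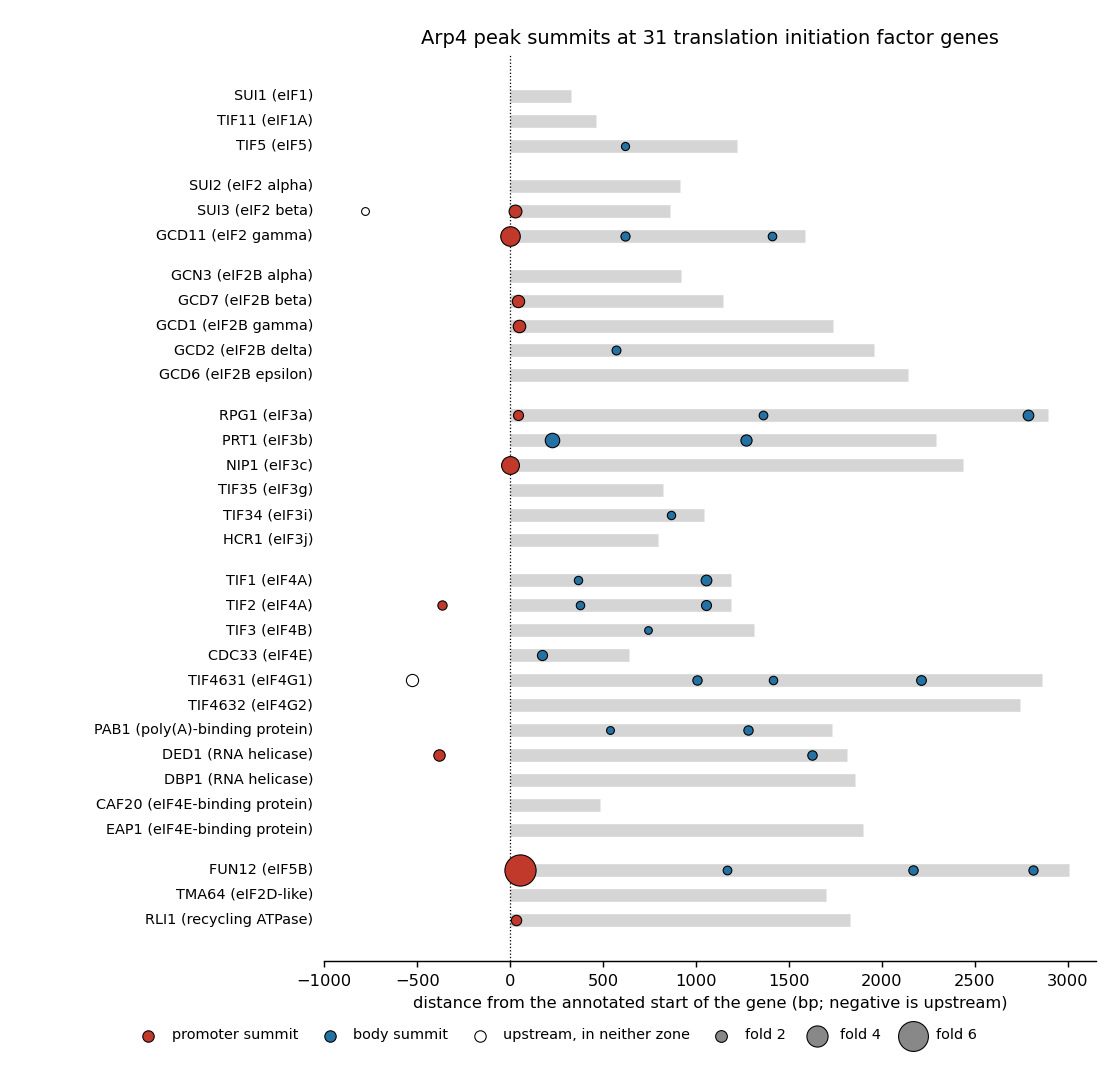
Summits of Arp4 peaks along the 31 genes, grouped by role. Grey bars are the genes drawn to scale from the annotated start, the x axis is the distance from that start in bp, and point size grows with the authors' fold. Red points are promoter summits, blue points body summits and open points upstream summits in neither zone. Of the 10 promoter summits, 8 lie at the very start of the gene, and 12 genes have neither a promoter nor a body summit.

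Of the 3 genes of the factors that guide scanning and start codon choice, 1 had a summit. SUI1, encoding eIF1, which keeps the scanning complex open, had no promoter or body summit. Its nearest summit lay 12398 bp away. TIF11, encoding eIF1A, which works beside eIF1, had none either, with the nearest summit 8003 bp away. TIF5, encoding eIF5, which triggers GTP hydrolysis by eIF2, had 1 body summit of 1.30-fold (−log10 q 4.22; chromosome XVI, 649183 to 649505), 617 bp inside the gene. That peak ranked 1304th of the 1430 by fold.

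The genes of eIF2 itself differed from subunit to subunit. GCD11, encoding the gamma subunit that binds GTP and the initiator tRNA, had a promoter peak of 3.64-fold (−log10 q 136; chromosome V, 204779 to 205492). Its summit fell 1 bp upstream of the annotated start, and the peak reached from 472 bp upstream to 241 bp inside the gene. GCD11 also had 2 weaker body summits, with folds of 1.49 and 1.38, at 618 and 1409 bp. SUI3, encoding the beta subunit, had a promoter peak of 2.23-fold (−log10 q 42.5; chromosome XVI, 100382 to 100875), its summit lying 26 bp inside the gene. SUI2, encoding the alpha subunit that is phosphorylated under starvation, had no summit, and the nearest lay 2109 bp downstream. Of the 3 subunits of one complex, 1 gene therefore had a peak in the top 50 of the list, 1 a moderate peak, and 1 none.

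The genes of eIF2B, the 5-subunit exchange factor, had promoter peaks in 2 cases and a body peak in 1. GCD1, encoding the gamma subunit, was 2.16-fold enriched (−log10 q 41.8; chromosome XV, 813477 to 814248), its summit lying 48 bp inside the gene. GCD7, encoding the beta subunit, was 2.12-fold enriched (−log10 q 24.5; chromosome XII, 719297 to 719528), its summit lying 40 bp inside. These promoter peaks were alike in fold and position, but the GCD1 peak was 772 bp wide and the GCD7 peak 232 bp. The GCD1 gene is divergent from RPT4, a proteasome ATPase gene, and its summit also lay 324 bp upstream of the RPT4 start, inside the RPT4 promoter window. GCD2, encoding the delta subunit, had 1 body summit with a fold of 1.44, at 568 bp. GCN3, encoding the regulatory alpha subunit, and GCD6, encoding the catalytic epsilon subunit, had none. A peak with a fold of 3.03 lay 913 bp past the end of GCN3, and the summit was 55 bp into the RNA polymerase III gene RPC37.

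The large eIF3 genes carried peaks, and the small ones mostly did not. Complex eIF3 is the scaffold that holds the other factors on the small ribosomal subunit. NIP1, encoding the c subunit, had a promoter peak of 3.27-fold (−log10 q 84.2; chromosome XIII, 895174 to 895853). As at GCD11, the summit lay 1 bp upstream of the annotated start. NIP1 had no body summit in its 2439 bp.

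PRT1, encoding the b subunit, had no promoter summit but 2 body summits. The first was 2.56-fold enriched (−log10 q 44.3; chromosome XV, 1017316 to 1017568), at 228 bp inside the gene, and the second was 1.89-fold enriched, at 1271 bp. The first peak began 84 bp inside the gene, so counting any peak base gave PRT1 a promoter peak as well. The first ranked ninth among the 671 body peaks of all genes and was the only body peak of the 24 with a fold of at least 2. Of all body peaks, 9.99% reached that fold. RPG1, encoding the a subunit, had a promoter summit with a fold of 1.67 at 43 bp inside the gene (chromosome II, 398102 to 398330). It also had body summits with folds of 1.40 at 1363 bp and 1.78 at 2787 bp. The last lay 108 bp before the gene's end and was, of the 24 body summits of the initiation factor genes, the closest to the 100 bp margin at a gene's end. TIF34, encoding the i subunit, had 1 body summit with a fold of 1.34, at 864 bp, in a peak 941 bp wide. That peak began 777 bp inside the 1044 bp gene and ran on past its end, to 1717 bp from the start. TIF35 and HCR1, encoding the g and j subunits, had no promoter or body summit.

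The eIF4 group and its messenger RNA partners held 12 of the 24 body summits, in 7 of 11 genes, against 10.1% of all protein-coding genes. The near-identical TIF1 and TIF2 held 2 of these body summits each, and the lowest −log10 q among the 12 was 1.84, at TIF3. Promoter summits were present in 2 of these 11 genes, DED1 and TIF2, and in 14.0% of all protein-coding genes. The group was not compared with all genes by a test. The promoter summits of DED1 and TIF2 both lay far upstream and inside the neighbouring gene rather than at the start. At DED1, encoding an RNA helicase needed for scanning, the promoter peak was 1.94-fold enriched (−log10 q 28.2; chromosome XV, 722070 to 722622). Its summit was 384 bp upstream of DED1 and fell inside HIS3, a histidine biosynthesis gene that runs in the same direction. At TIF2 the peak was 1.52-fold enriched (−log10 q 5.99; chromosome X, 154981 to 155392). Its summit was 368 bp upstream and inside GLG2, a gene for starting glycogen synthesis. In both cases the initiation factor gene had the nearest start of any protein-coding gene.

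The eIF4A genes TIF1 and TIF2 encode the same RNA helicase and are near-identical copies, and they showed the same body pattern. In both, the stronger body summit lay 1052 bp from the start in a peak 231 bp wide, with a fold of 1.80 in TIF1 (chromosome XI, 555907 to 556137) and of 1.66 in TIF2 (chromosome X, 153564 to 153794). The TIF1 summit also lay in the promoter window of UTP30, 479 bp from the start of that gene, which was the nearest start. The weaker summit lay at 364 bp in TIF1 and at 377 bp in TIF2, with folds of 1.34 and 1.36. How reads that map to both copies were treated is not given in the sources used here, so the 2 genes cannot be taken as independent observations. Without them 12 of 29 genes had a body summit (41.4%).

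The other paralog pairs of the group were unlike each other. TIF4631, encoding the more abundant form of the scaffold eIF4G, had 3 body summits with folds of 1.53, 1.36 and 1.61, at 1008, 1416 and 2210 bp, and the strongest of these was on chromosome VII from 826162 to 826392. Its paralog TIF4632, of similar length at 2745 bp against 2859 bp, had no summit, and the nearest lay 2241 bp downstream. DED1 had the upstream summit and a body summit with a fold of 1.55 at 1626 bp. Its paralog DBP1, a helicase gene used mainly outside rapid growth, had no summit, and the nearest lay 12652 bp upstream. The upstream peak closest to TIF4631 had a fold of 2.09 and lay 528 bp from the start, just outside the promoter window, with its summit inside the tRNA gene YNCG0037W. Of the promoter summits that counted, the one at DED1 was the nearest to that 500 bp limit.

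Cap binding and poly(A) binding genes had body summits and no promoter summits. CDC33, encoding the cap-binding protein eIF4E, had 1 of 1.69-fold (−log10 q 13.4; chromosome XV, 60672 to 60986), at 172 bp. CDC33 is the shortest of the genes with a body summit, at 642 bp. Its peak began 38 bp inside the gene, and its place in the body rests on the 100 bp limit. With a promoter window to 200 bp inside, CDC33 had a promoter summit, and with a body margin of 200 bp it had no body summit. PAB1, encoding the poly(A)-binding protein, had 2, with folds of 1.25 at 539 bp and 1.53 at 1278 bp. TIF3, encoding eIF4B, a helper of eIF4A, had 1 with a fold of 1.21, and its −log10 q of 1.84 was near the lowest −log10 q in the list, 1.31. CAF20 and EAP1, which encode proteins that compete with eIF4G for eIF4E, had none. The summit nearest to CAF20, with a fold of 2.03, lay 290 bp past its end inside the snoRNA gene SNR31. That peak nevertheless reached into CAF20, from 146 bp after the start of this 486 bp gene.

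Among the factors that act at subunit joining and after termination, FUN12 stood first in the whole list. FUN12 encodes eIF5B, and its peak spanned 1008 bp on chromosome I (75837 to 76844). The peak was 6.32-fold enriched with a −log10 q of 545, its summit lay 54 bp inside the gene, and it reached from 590 bp upstream to 417 bp inside the gene. The gene is divergent from RBG1, encoding a GTP-binding protein associated with ribosomes, and the FUN12 summit also lay 329 bp upstream of the RBG1 start. FUN12 further had 3 body summits, with folds of 1.40, 1.54 and 1.50 at 1169, 2168 and 2814 bp. The last of these also lay in the promoter window of the next gene, MTW1, 477 bp from its start. RLI1, encoding the ATPase that splits ribosomes after termination, had a promoter peak of 1.74-fold (−log10 q 11.5; chromosome IV, 628204 to 628612), its summit lying 30 bp inside the gene. TMA64, encoding a factor related to mammalian eIF2D, had none.

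Promoter summits of the initiation factor genes gathered at the start codon. In 8 of the 10 genes the summit lay within 60 bp of the annotated start, from 1 bp upstream at GCD11 and NIP1 to 54 bp inside at FUN12. Among all 839 genes with a promoter summit, 181 (21.6%) had it that close. These 839 genes rest on 659 peaks, some counted for more than 1 gene. Counted in 50 bp steps, the fullest step of all genes was 50 to 99 bp inside, with 162 gene and summit pairs. The step from 0 to 49 bp inside came next, with 108. Summits just inside the start were thus common among all genes too, and the 60 bp limit leaves out part of the fullest step. The distance of 60 bp was chosen after the positions were known, so the share among the initiation factor genes is a description. The other 2 summits, at DED1 and TIF2, lay in the upstream zone, and no initiation factor gene had a summit from 350 to 51 bp upstream. The 8 peaks at the start had a median fold of 2.19, against 1.91 for the 180 peaks of all genes within that distance. The 10 genes were both divergent from and in tandem with their upstream neighbour, with 3 of the 12 divergent and 7 of the 19 tandem initiation factor genes. The shares of all divergent and all tandem genes with a promoter summit were not computed, so no preference can be read from these counts. A peak shared with another gene's promoter window was found in 2 of the 10, FUN12 and GCD1, against 28.1% of all promoter peaks.

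**Figure D2:**
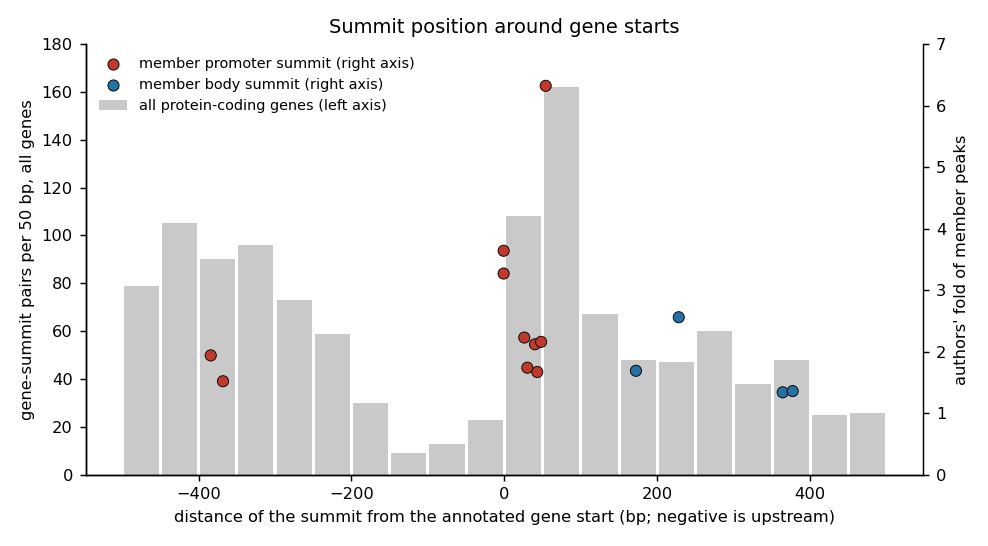
Position of summits around gene starts. Grey bars (left axis) count gene and summit pairs in 50 bp steps over all protein-coding genes, and points (right axis) are the summits of the initiation factor genes at the authors' fold of their peak, plotted by distance from the annotated start in bp. The promoter summits of 8 genes sit within 60 bp of the start, and those of DED1 and TIF2 lie 384 and 368 bp upstream.

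By fold, the promoter peaks ran from the top of the list to below its median. FUN12, GCD11 and NIP1 ranked first, 39th and 65th of the 1430 peaks, and 6 of the 10 reached a fold of 2 or more, against 39.9% of the promoter peaks of all genes. SUI3, GCD1 and GCD7 formed a close middle group at 2.12 to 2.23. DED1, RLI1, RPG1 and TIF2 were lower, and TIF2 alone, at 1.52, fell under the list's median. The promoter peaks had a median width of 523.5 bp and the body peaks of 313.5 bp, with a median −log10 q of 35.0 and 7.67. The whole list had medians of 359 bp and 15.9. Width and −log10 q were not computed for the promoter and body peaks of all genes, whose median folds were 1.86 and 1.53. Among the 5 genes with both kinds, the promoter peak was the stronger in FUN12, GCD11 and DED1, whereas in RPG1 and TIF2 the strongest body peak had the higher fold.

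**Figure D3:**
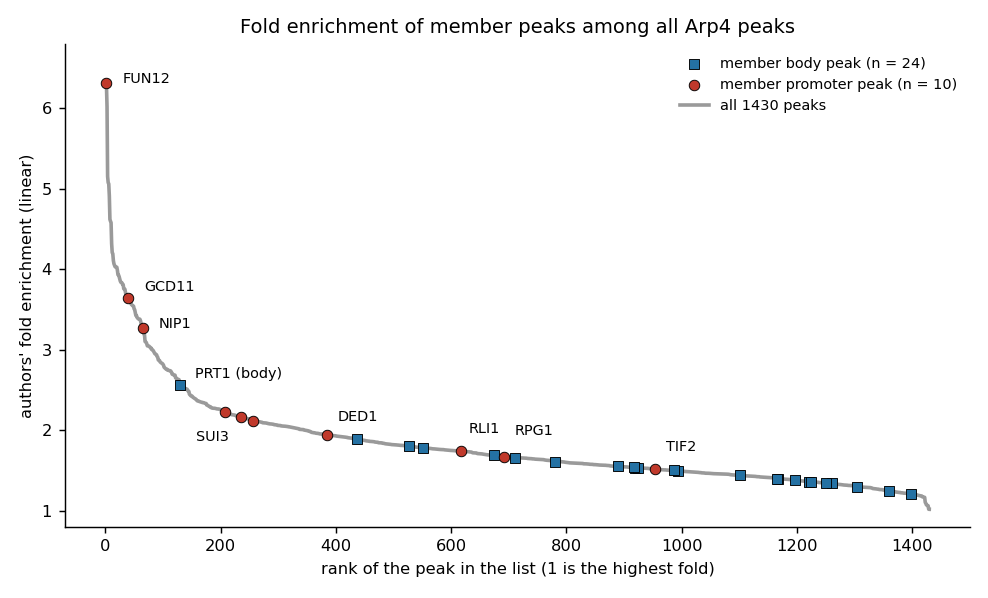
Fold of initiation factor peaks within the whole list. The grey line gives the authors' linear fold of all 1430 peaks in order of rank, circles are the 10 promoter peaks and squares the 24 body peaks. Promoter peaks lie from rank 1 (FUN12) to rank 954 (TIF2), and PRT1 has the highest body peak at a fold of 2.56.

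Body summits were spread along the genes and were often more than 1 per gene. Of the 31 genes, 8 had 2 or more body summits (25.8%, against 1.25% of all genes), and TIF4631 and FUN12 had 3 each (6.45%, against 0.267%). The 8 include TIF1 and TIF2, which cannot be taken as independent. Many of these peaks were weak. With a −log10 q of at least 10, 8 of the 24 body peaks remained, in 7 genes. FUN12 then kept none, and only PRT1 kept more than 1. The share of all genes with several body summits was not computed at that limit. Of the 24 summits, 13 lay nearer to the end of the gene than to its start (54.2%), against 53.7% of the 706 gene and summit pairs of all protein-coding genes. Longer genes leave more room for a summit, so the count was also taken by length. The initiation factor genes held 5.78 body summits per 10 kb of gene body and all protein-coding genes 0.922, with peaks of any −log10 q counted in both. Among genes of 1203 to 1875 bp, 5 of 9 initiation factor genes had a body summit, against 10.2% of all genes of that length. Among genes of 1878 bp or more it was again 5 of 9, against 8.95%. In the range of 712 to 1200 bp it was 3 of 9 against 11.9%, and below that 1 of 4 against 9.50%.

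**Figure D4:**
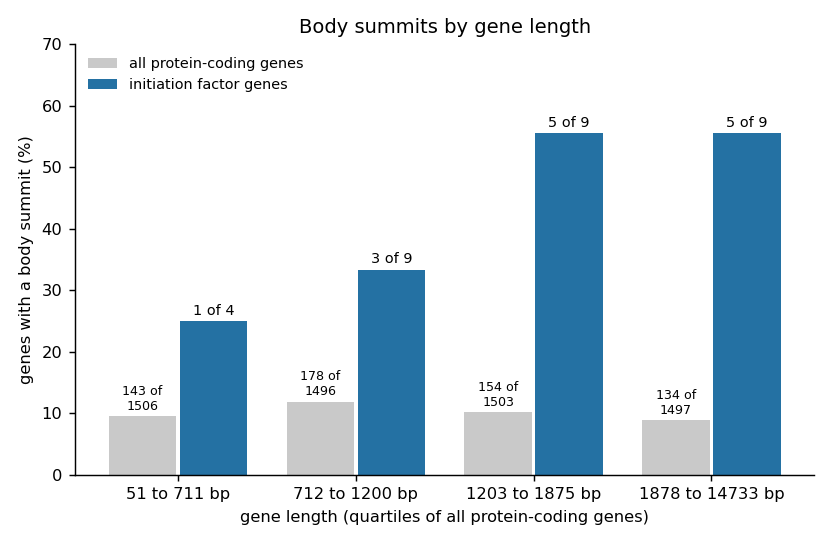
Share of genes with a body summit by gene length. Bars give the percentage of all protein-coding genes (grey) and of the initiation factor genes (blue) in each quartile of gene length in bp, with the counts above the bars. In the upper length quartiles 5 of 9 initiation factor genes had a body summit, and the grey bars lie between 8.95% and 11.9%.

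Of the 12 genes with no promoter or body summit, 9 also had no summit from 1500 bp upstream to 1500 bp past their end. They were SUI1, TIF11, SUI2, TIF35, HCR1, TIF4632, DBP1, EAP1 and TMA64. The distance from the gene to the nearest summit in these 12 ran from 290 bp at CAF20 to 12775 bp at EAP1, with a median of 3342.5 bp. Their lengths ran from the 327 bp of SUI1 to the 2745 bp of TIF4632. Seen by complex, eIF2, eIF2B and eIF3 each held genes with peaks and at least 1 gene with none.

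Other genes of initiation control and their close partners also held summits. In a second list of 20 such genes, 5 had a promoter summit (25.0%, against 14.0% of all genes) and 5 a body summit (25.0%, against 10.1%). Not all of the 20 act in initiation, as with ARB1 and STM1 below, so the shares describe a mixed list. The promoter folds were 2.10 at HYP2, encoding eIF5A, 1.94 at GCN20 and 1.62 at GCN1, which help to activate the eIF2 kinase, 1.88 at YIH1, an inhibitor of that activation, and 1.84 at SCD6, a translational repressor. GCN20 had its summit 60 bp inside the gene and SCD6 89 bp inside, whereas those of HYP2, GCN1 and YIH1 lay 313 to 454 bp upstream. The body folds were 1.98 at YIH1, 1.75 at NEW1, encoding an ATPase that works on ribosomes, 1.55 at STM1, encoding a protein that protects idle ribosomes, 1.46 at GCN4, the transcription factor of the starvation response, and 1.43 at ARB1, encoding an ATPase of ribosome assembly. These shares were not tested against those of the initiation factor genes. GCN2, the eIF2 kinase gene, had no summit of either kind. No gene of this list had more than 1 body summit.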

How the data were processed

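Arp4 was profiled by chromatin immunoprecipitation in 2 tagged and 2 untagged yeast samples, and 1 peak list was analysed. The submitters' processing notes name MACS2, SAMtools 1.4, BWA 0.7.15-r1140 and fastp 0.21.0. Not given in the sources used here are build, control, threshold, pooling and the treatment of multiply mapping reads. The deposited fold is the authors' linear ratio at the summit. The −log10 q and the score are deposited as the authors' peak caller wrote them, and the score was not used. Depth is unknown.

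The summit is the deposited start plus the summit offset, counted from 1. Genes came from a RefSeq table of R64, with strand read from systematic names. As a check of the build, 48 of 275 tRNA genes lay within 100 bp of a summit, and 4 to 13 did once all summits were shifted by 200 to 1000 bp. Shifts below 200 bp were not tried, so the check cannot exclude a smaller offset in the distances from gene starts. One summit could count for several genes. Because 1 list gives no replicates, shares and medians are set beside those of all genes, with no test and no p-value. Summit assignment was tested on simulated data with planted summits. All 31 genes are named; others are named only if they share or are nearest to one of their summits, or belong to the second list. The genes and lists were chosen with earlier results of these data known. Alternatives changed windows, margins, thresholds and overlap rules. Motifs were not searched, since no sequence was used here. Python 3.11.15 was used with numpy 2.4.6, pandas 2.3.3 and matplotlib 3.10.9.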

Additional observations from a re-analysis of the deposited data

How the results depend on the processing

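Under 6 of 7 alternatives the number of genes with a promoter summit stayed within 1.5 times the reported 10, from 9 to 13. With a window from 250 bp upstream to the start it was 2 (GCD11 and NIP1, 6.45% against 2.23% of all genes) and the median promoter fold 3.45, because this window leaves out both the first 100 bp of the gene, which hold 6 of the 10 summits, and the more distant upstream DNA, where those of DED1 and TIF2 lie. With the window reaching 1000 bp upstream the count was 11 (35.5%), but the share of all genes rose to 23.7%. The number with a body summit was 11 to 20 under 4 of 6 alternatives, against the reported 14. The 20 came from counting any peak base (64.5%, against 17.6% of all genes). The 11 came from a margin of 200 bp (35.5%, against 6.48%). The number was 5 with peaks at or above the list's median fold (16.1%, against 3.43% of all genes). With a −log10 q of at least 10 it was 7 (22.6%, against 6.03%). The median body fold was 1.42 to 1.73 in 4 alternatives, and the median promoter fold 2.10 to 2.16 in the other 5, among them 2.12 without FUN12. No paired analysis was possible because the 1 peak list has no values per sample, and for the same reason no replicate could be left out.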
